A study of Sus scrofa with 14 samples.

Results

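Porcine muscle stem cells (pMuSCs) differentiated for 4 days were set against undifferentiated pig pre-gastrulation epiblast stem cells (pgEpiSCs). The comparison asks how muscle cells grown from tissue differ from the pluripotent cells at the start of the study's myogenic protocol. It took 9 of the 14 libraries of the series by their labels: 3 MPC-Dif libraries, 3 pgEpiSCs libraries at low passage and 3 at high passage, with both passages given equal weight. All 9 came from wild-type (WT) cells. The MPC-Dif cells, sampled on day 4, were isolated from the longest dorsal muscle of 1-week-old Nongda Xiang pigs, enriched by differential attachment to plastic, expanded with foetal bovine serum and FGF2, and then held in horse serum. The pgEpiSCs, sampled on day 0, are a line from an embryo of the same breed that was kept on feeder layers of growth-arrested mouse embryonic fibroblasts without a differentiation treatment. Their medium held serum replacement, activin A, LIF, FGF2, the GSK3 inhibitor CHIR99021, the tankyrase inhibitor IWR-1-endo and the SRC family inhibitor WH-4-023. Cell source, animal, medium, serum, feeder cells and differentiation changed together between the groups and cannot be told apart. Whether replicate libraries were separate cultures or animals is not given in the sources used here. The p-values therefore measure only the spread between libraries of a group, estimated over all 14 libraries of the series.

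Skeletal muscle forms when committed myoblasts leave the cell cycle, switch on myogenin and the MEF2 factors, fuse with the help of membrane proteins such as myomaker, and assemble contractile proteins into sarcomeres. In adult muscle the source of these myoblasts is the satellite cell, and cultures taken from muscle tissue also carry fibroblasts and other connective tissue cells. Epiblast stem cells are a dividing epithelium held in the pluripotent state by factors such as NANOG, SOX2 and OTX2, by Nodal and FGF signals, and by the RNA-binding protein LIN28A.

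Expression was measured by RNA sequencing of polyadenylated RNA and deposited as TPM (transcript abundance per transcript length, scaled to a fixed total in each library). TPM keeps no read counts, so the sequencing depth behind these values is unknown. MPC-Dif libraries held 12150 to 12259 genes above 0.5 TPM, and pgEpiSCs libraries 12691 to 12769. Pearson's r on log2(TPM + 1) was 0.9945 to 0.9956 among MPC-Dif libraries, 0.9896 to 0.9922 within a passage of pgEpiSCs, 0.976 to 0.983 between the passages, and 0.6724 to 0.684 between an MPC-Dif and a pgEpiSCs library. No library stood apart from its group. A gene was tested when it passed 0.5 TPM in at least 50% of the libraries of a compared group.

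Of 13985 tested genes, 5553 (39.7%) were higher and 6524 (46.6%) were lower in MPC-Dif than in pgEpiSCs at a limma adjusted p below 0.05. With a log2 difference beyond 2 required as well, 1607 (11.5%) were higher and 1362 (9.74%) were lower. The 3 MPC-Dif values lay above all 6 pgEpiSCs values for 4999 genes (35.7%) and below all 6 for 5793 (41.4%). Because so much of the transcriptome differed, a count of called members in a gene list has to be read against these shares. A gene near 0 in a group passed the filter only through the other group, so its direction was set in advance. The median log2 difference over all tested genes was -0.14. It became -0.37 after removal of the mitochondrially encoded genes, -0.31 after removal of the 100 most abundant genes and -0.038 when libraries were scaled by the median of ratios. All differences given here are MPC-Dif minus pgEpiSCs on the log2(TPM + 1) scale, which understates the change of genes at low levels. In these bulk cultures fewer cells of a type and less RNA per cell cannot be told apart.

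**Figure D1:**
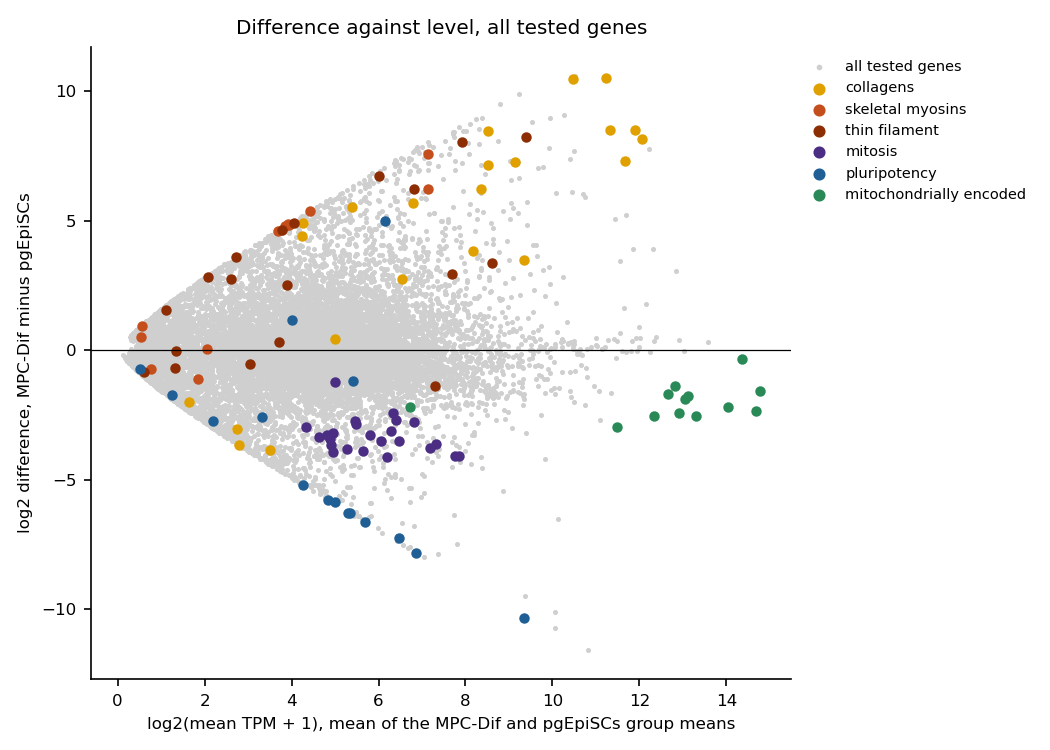
Log2 difference of MPC-Dif minus pgEpiSCs (y axis) against the mean level of both groups as log2(TPM + 1) (x axis) for the 13985 tested genes in grey, with 6 gene lists in colour. *DCN* reached 10.61 and *LEFTY2* -11.60 among all tested genes. Within the coloured lists the collagen *COL3A1* was highest at 10.53 and the pluripotency gene *LIN28A* lowest at -10.34, and the 13 mitochondrially encoded genes lay below 0, all but *ATP8* of them at the right edge.

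Among genes with a symbol the 12 largest rises without overlap were *DCN*, *COL3A1*, *COL6A3*, *GPNMB*, *ASPN*, *ACTA2*, *EMP1*, *FMOD*, *LUM*, *S100A4*, *ISLR* and *MFAP4*, most of which encode matrix proteins, while *ACTA2* encodes a contractile actin. *DCN*, which encodes the collagen-binding proteoglycan decorin, had 2908, 2927 and 2957 TPM in MPC-Dif, against 0 to 2.33 TPM (median 1.01) in pgEpiSCs (log2 difference 10.61, SE 0.20, adjusted p = 1.0e-15). *GPNMB*, a transmembrane glycoprotein gene, had 1211, 1183 and 1185 TPM in MPC-Dif, against 0.075 to 0.624 TPM (median 0.168) in pgEpiSCs (log2 difference 9.90, SE 0.13, adjusted p = 3.3e-17). These MPC-Dif values were each more than 1000 TPM while no pgEpiSCs library passed 3 TPM for either gene. The 12 largest falls among genes with a symbol were *LEFTY2*, *LIN28A*, *CD24*, *OTX2*, *SLC2A5*, *NANOG*, *DSP*, *SLC7A3*, *KIF5C*, *DNMT3B*, *KRT8* and *ZFP42*, which mix pluripotency factors with epithelial genes and transporters. *CD24*, a small surface glycoprotein gene, had 2.06, 0.395 and 0.558 TPM in MPC-Dif, against 1940.2 to 2329.6 TPM (median 2094) in pgEpiSCs (log2 difference -10.13, SE 0.17, adjusted p = 4.7e-16).

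The label of the MPC-Dif group was first set beside marker lists, which were chosen with earlier results of these data known. All 9 tested skeletal muscle markers were higher in MPC-Dif, and together they took 0.0821% to 0.0906% of TPM in MPC-Dif and 0.000805% to 0.00191% in pgEpiSCs. *PAX7*, the satellite cell factor, did not pass the filter on low values in either group, and the adult fast myosin genes *MYH1*, *MYH2* and *MYH4* were not analysed here. All 7 tested pgEpiSCs markers were lower in MPC-Dif, at 0.000144% to 0.000176% of TPM in MPC-Dif and 0.545% to 0.624% in pgEpiSCs. All 12 fibroblast markers were also higher in MPC-Dif and took 2.62% to 2.72% of TPM there, against 0.00483% to 0.00881% in pgEpiSCs. Markers near 0 in pgEpiSCs, such as *MYL1* and *CHRNA1*, passed the filter only through MPC-Dif and could only come out higher. The reverse held for pgEpiSCs markers near 0 in MPC-Dif, such as *NANOG*. These counts are therefore no test of the label. By level the MPC-Dif libraries carried both the skeletal muscle and the fibroblast set, with the fibroblast set at the higher sum. No marker of either set was at 0 in all MPC-Dif libraries. The sets hold different genes, the fibroblast set among them abundant collagens, so these sums do not give shares of cells. How far RNA of fibroblasts took part in the differences below was not tested.

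Myogenic transcription factors rose as a group but very unevenly. Of 21 tested members 17 were higher and 3 lower, with a median log2 difference of 1.15. *MYOG*, encoding myogenin, which drives terminal differentiation, had 213, 222 and 200.2 TPM in MPC-Dif, against 0 to 0.658 TPM (median 0.369) in pgEpiSCs (log2 difference 7.37, SE 0.17, adjusted p = 1.0e-14). The 3 MPC-Dif libraries were all above 200 TPM and no pgEpiSCs library reached 1 TPM. *MYOD1*, the determination factor of the same family, had only 1.2, 1.03 and 0.878 TPM in MPC-Dif, against 0 to 0.097 TPM (median 0) in pgEpiSCs (log2 difference 1.00, SE 0.13, adjusted p = 3.4e-06). *MYF5*, the earliest factor of the family, had 9.8, 10.8 and 7.79 TPM in MPC-Dif, against 0 to 3.75 TPM (median 1.46) in pgEpiSCs (log2 difference 2.15, SE 0.20, adjusted p = 8.6e-08). Both were thus higher in MPC-Dif without overlap, but at levels far under that of *MYOG*.

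Partner factors were mostly higher too. *MEF2C*, a co-activator of muscle genes, had 25.9, 23.6 and 21.5 TPM in MPC-Dif, against 0.92 to 2.4 TPM (median 1.69) in pgEpiSCs (log2 difference 3.22, SE 0.093, adjusted p = 1.2e-13). *MEF2A* reached 95.2, 96.8 and 91.6 TPM in MPC-Dif, against 16 to 20.6 TPM in pgEpiSCs, and was the most abundant MEF2 member tested. *MSC*, encoding musculin, a repressor that binds the same sites as the myogenic factors, rose by 4.54 (SE 0.10), and *TCF21*, a factor of connective tissue progenitors that the list shares with the fibroblast markers, rose by 3.84 (SE 0.20). Among those that fell were *HEY1*, a Notch target, at 0.071, 0 and 0 TPM in MPC-Dif against 4.21 to 6.29 TPM in pgEpiSCs, and *SIX4*, a homeobox gene, at 20.5, 17.2 and 16.8 TPM in MPC-Dif against 27.2 to 31.5 TPM in pgEpiSCs. *PAX3*, the embryonic myogenic progenitor factor, stayed under 1 TPM in every MPC-Dif library.

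Promoter sequence is shown for 4 muscle genes that were higher in MPC-Dif, as 200 bases directly upstream of the RefSeq gene start in the Sscrofa11.1 assembly, on the gene's strand. Capitals mark the E-box (CANNTG, the site bound by myogenic factors and other basic helix-loop-helix proteins) or, in *MYL1*, a MEF2 site, and the genes were chosen after their values and matches were seen. *MYMK* holds 4 E-boxes, 2 of them CAGCTG, at -98 and -26 from the gene start. *CHRNA1* holds a CAGCTG at -43 and another E-box at -24, *MYOG* holds an E-box at -64, and *MYL1* holds a MEF2 site at -161. Only a narrow form of the MEF2 site was searched, with fixed bases at both ends and A or T between them. The *MYOG* window holds a stretch rich in A and T that departs from this form in its last base and was left unmarked. A window without a mark can therefore still hold a MEF2 site of another form. All 4 windows lie outside the annotated gene, at chr9:113785313-113785512 for *MYOG*, chr1:273111722-273111921 for *MYMK*, chr15:80692257-80692456 for *CHRNA1* and chr15:113051316-113051515 for *MYL1*, each on the minus strand.
MYOG: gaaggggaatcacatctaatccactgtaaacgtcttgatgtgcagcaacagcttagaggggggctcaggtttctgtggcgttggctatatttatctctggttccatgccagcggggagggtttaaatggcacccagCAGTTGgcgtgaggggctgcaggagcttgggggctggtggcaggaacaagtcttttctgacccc
MYMK: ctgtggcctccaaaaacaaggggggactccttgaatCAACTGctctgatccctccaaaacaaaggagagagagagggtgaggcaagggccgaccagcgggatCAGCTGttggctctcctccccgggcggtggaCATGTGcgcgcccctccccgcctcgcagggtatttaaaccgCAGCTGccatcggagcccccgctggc
CHRNA1: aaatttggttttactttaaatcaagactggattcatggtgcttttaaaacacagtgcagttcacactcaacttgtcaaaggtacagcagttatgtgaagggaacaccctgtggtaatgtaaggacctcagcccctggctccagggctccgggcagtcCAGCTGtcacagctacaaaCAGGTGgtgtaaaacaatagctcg
MYL1: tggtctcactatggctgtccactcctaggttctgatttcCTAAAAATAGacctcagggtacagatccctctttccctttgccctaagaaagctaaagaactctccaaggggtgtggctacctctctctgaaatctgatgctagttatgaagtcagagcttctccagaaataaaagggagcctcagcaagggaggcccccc

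Both strands were searched in 19569 such windows of the annotation. CAGCTG, a subset of CANNTG, was found in 11.2% of all windows and in 15 of 63 windows (23.8%) of the higher members of 6 muscle lists. CANNTG was found in 53.3% of all windows and in 36 of the 63 (57.1%). The narrow form of the MEF2 site was found in 0.383% of all windows and in 1 of the 63 (1.59%). The CArG box, the serum response factor site, was found in 0.996% of all windows and in 1 of the 63 (1.59%). MEF2 sites of other forms, such as the stretch in the *MYOG* window, were not counted, so these shares do not show how common MEF2 sites are. These matches describe the letters of the windows and nothing was tested on them.

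Fusion and cell contact genes followed, with 11 of 16 higher and 4 lower. *MYMK*, encoding myomaker, the membrane protein that lets myoblasts fuse, had 46.4, 44.9 and 45.8 TPM in MPC-Dif and was listed at 0 in all 6 pgEpiSCs libraries (adjusted p = 1.1e-15). *CAV3*, the caveolin of muscle membranes, had 9.75, 8.53 and 8.58 TPM in MPC-Dif and was also listed at 0 in all 6 pgEpiSCs libraries (adjusted p = 8.9e-14). *CDH11*, a mesenchymal cadherin, had 800.3, 737 and 709 TPM in MPC-Dif, against 32.4 to 57.8 TPM (median 40.0) in pgEpiSCs (log2 difference 4.12, SE 0.081, adjusted p = 1.7e-15). *CDH15*, the cadherin of satellite cells and myoblasts, reached only 6.05, 6.74 and 4.93 TPM in MPC-Dif, against 0.753 to 2.68 TPM in pgEpiSCs (log2 difference 1.41, SE 0.21, adjusted p = 1.4e-05). The cadherin that fell was *CDH2*, neural cadherin, with 5.91, 5.3 and 4.79 TPM in MPC-Dif, against 109 to 151 TPM (median 130.1) in pgEpiSCs (log2 difference -4.36, SE 0.061, adjusted p = 6.5e-17). *NPHS1*, encoding nephrin, and the receptor genes *ADGRB3* and *CDON* fell with it.

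Of the 12 tested skeletal myosin genes 9 were higher and 2 lower, with a median log2 difference of 4.71. *MYH3*, the embryonic myosin heavy chain, had 281, 292 and 258 TPM in MPC-Dif, against 1.95 to 3.84 TPM (median 2.71) in pgEpiSCs (log2 difference 6.22, SE 0.077, adjusted p = 2.1e-17). *MYH8*, the perinatal heavy chain, had 26.8, 30.0 and 29.5 TPM in MPC-Dif, against 0 to 0.124 TPM in pgEpiSCs (log2 difference 4.86, SE 0.085, adjusted p = 5.7e-16). *MYLPF*, a fast regulatory light chain, had 271, 311 and 261 TPM in MPC-Dif, against 0 to 1.77 TPM (median 0.409) in pgEpiSCs (log2 difference 7.59, SE 0.21, adjusted p = 7.5e-14). Of the developmental heavy chains, *MYH3* was well above *MYH8*. The adult fast heavy chains *MYH1*, *MYH2* and *MYH4* were not analysed here, so the developmental chains cannot be set against them. The light chain genes *MYL1*, *MYL2* and *MYL4* were listed at 0 in every pgEpiSCs library and averaged 28.1, 41 and 26.8 TPM in MPC-Dif. *MYH7*, the slow heavy chain, was lower, at 0.286, 0.18 and 0.354 TPM in MPC-Dif against 0.975 to 1.33 TPM in pgEpiSCs, and *MYBPC2*, encoding the fast myosin-binding protein C, fell by 1.13 on the log2 scale.

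In the thin filament 14 of 19 tested members were higher and 4 lower (median 2.84). *ACTC1*, the cardiac actin that developing skeletal muscle also uses, had 1350.2, 1367 and 1294 TPM in MPC-Dif, against 1.84 to 6.86 TPM (median 3.41) in pgEpiSCs (log2 difference 8.24, SE 0.15, adjusted p = 1.0e-15). *ACTA1*, the adult skeletal actin, had 124, 129.9 and 123 TPM in MPC-Dif, against 0.061 to 0.656 TPM (median 0.137) in pgEpiSCs (log2 difference 6.73, SE 0.13, adjusted p = 1.1e-15). *TNNT2*, the troponin T of heart and immature muscle, had 447, 533 and 455 TPM in MPC-Dif, against 0 to 2.09 TPM (median 0.809) in pgEpiSCs (log2 difference 8.07, SE 0.21, adjusted p = 3.4e-14). In each case every MPC-Dif library was above every pgEpiSCs library. Actin genes share long near-identical coding stretches, and how reads that fit several genes were counted is not given in the sources used here, so the level of a single actin is uncertain. *TNNC1*, the slow and cardiac troponin C, averaged 220.2 ± 26.5 TPM in MPC-Dif and 1.94 ± 0.43 TPM in pgEpiSCs (SD, n = 3 and 6), while *TNNC2*, its fast counterpart, was lower at 5.69 ± 0.711 TPM in MPC-Dif and 8.85 ± 2.81 TPM in pgEpiSCs, a call lost against the low-passage libraries alone (adjusted p = 0.225). *TPM2*, a tropomyosin shared with smooth muscle, rose by 3.35 (SE 0.061) on the log2 scale, and *TPM3* fell by 1.40 on the log2 scale.

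Z-disc, M-band and titin-associated genes gave 28 of 33 higher and 4 lower, with a median of 2.70. *DES*, encoding the intermediate filament desmin, had 111, 124 and 117 TPM in MPC-Dif, against 3.61 to 16.5 TPM (median 9.7) in pgEpiSCs (log2 difference 3.67, SE 0.073, adjusted p = 1.9e-15). *CRYAB*, a small heat shock protein of the Z-disc, had 250.2, 283 and 320.5 TPM in MPC-Dif, against 0.179 to 1.68 TPM (median 0.983) in pgEpiSCs (log2 difference 7.24, SE 0.21, adjusted p = 1.1e-13). *HSPB6*, another small heat shock protein gene, had the largest rise of the list, at 961, 1011 and 1127 TPM in MPC-Dif against 4.13 to 7.92 TPM in pgEpiSCs (log2 difference 7.32, SE 0.14, adjusted p = 1.1e-15). *CSRP3*, encoding muscle LIM protein, and *TRIM63*, encoding the ubiquitin ligase MuRF1 that turns over myosin, averaged 35.9 and 35.7 TPM in MPC-Dif and were listed at 0 in all pgEpiSCs libraries. Among the 4 that fell were *OBSL1*, *MYOZ1* and *TCAP*, with log2 differences of -0.71, -1.01 and -0.65, and of these only *OBSL1* passed 1 TPM in MPC-Dif. The call for *TCAP* was lost under quantile normalization (adjusted p = 0.109) and against the high-passage libraries alone (adjusted p = 0.0865).

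**Figure D2:**
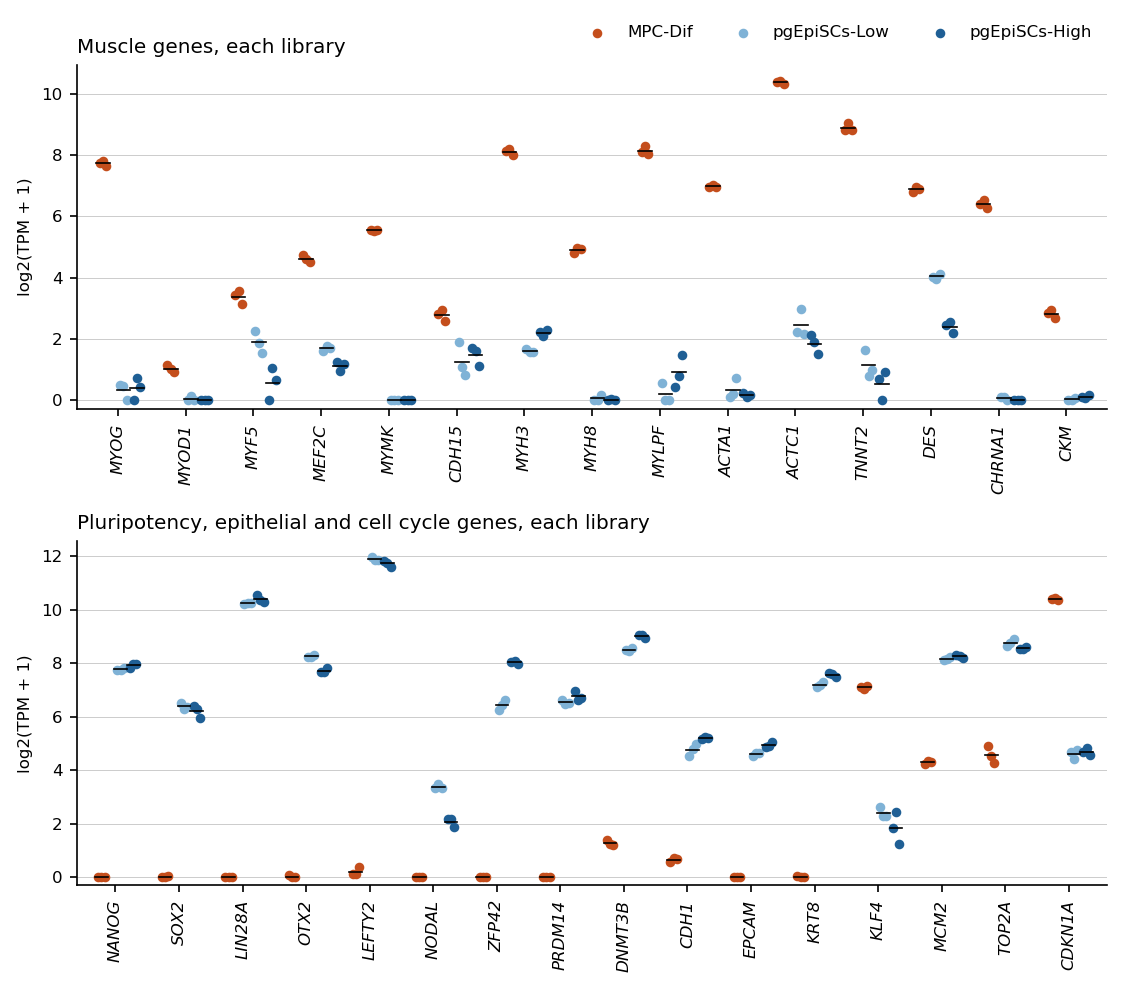
Level of 31 genes as log2(TPM + 1) in each MPC-Dif library (orange, n = 3) and each pgEpiSCs library (low passage light blue, high passage dark blue, n = 3 each), with black bars for the mean. In the upper panel MYOG, MYH3 and ACTC1 were high in MPC-Dif and low in pgEpiSCs while MYOD1 stayed near 1 in MPC-Dif, and in the lower panel KLF4 and CDKN1A alone were higher in MPC-Dif.

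Calcium handling and synapse genes were mixed. Of 21 excitation-contraction coupling genes 12 were higher and 5 lower, with a median of 0.41, and of 8 neuromuscular junction genes 3 were higher and 5 lower. Over all tested genes 39.7% were higher and 46.6% lower. *SRL*, encoding sarcalumenin of the sarcoplasmic reticulum, had 13.9, 13.5 and 11.8 TPM in MPC-Dif, against 0 to 0.27 TPM in pgEpiSCs (log2 difference 3.67, SE 0.092, adjusted p = 2.2e-14). *CASQ2*, the cardiac calsequestrin, rose by 2.72 (SE 0.13), whereas *CASQ1*, the calsequestrin of fast muscle, had 0.768, 0.803 and 0.945 TPM in MPC-Dif, against 3.95 to 9.07 TPM in pgEpiSCs (log2 difference -1.87, SE 0.094, adjusted p = 7.5e-11). *JPH1*, a junctophilin that ties the membranes of the triad, fell by 3.13 on the log2 scale. *CHRNA1*, the alpha subunit of the muscle acetylcholine receptor, had 83.9, 90.9 and 76.3 TPM in MPC-Dif, against 0 to 0.082 TPM (median 0) in pgEpiSCs (log2 difference 6.36, SE 0.076, adjusted p = 1.4e-17), and *MUSK*, its clustering kinase, had 1.53, 0.903 and 0.889 TPM in MPC-Dif and 0 in all 6 pgEpiSCs libraries. Genes for proteins of the synaptic cleft were lower, with log2 differences of -2.77 for *AGRN* (agrin), -1.65 for *ACHE* (acetylcholinesterase) and -2.51 for *COLQ*, its collagen tail.

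The dystrophin complex, integrins and laminins gave 17 of 21 higher and 3 lower (median 2.03). *SGCD*, a sarcoglycan that stabilises dystrophin at the membrane, had 44.1, 44.3 and 47.3 TPM in MPC-Dif, against 0 to 0.187 TPM in pgEpiSCs (log2 difference 5.45, SE 0.10, adjusted p = 7.4e-16). *LAMA4*, a laminin chain of vessel and muscle basement membrane, had 272, 239 and 235 TPM in MPC-Dif, against 1.65 to 6.25 TPM (median 3.15) in pgEpiSCs (log2 difference 5.90, SE 0.10, adjusted p = 2.9e-16). *LAMA1*, the laminin chain of the early embryo, had the reverse pattern with 0.41, 0.143 and 0.118 TPM in MPC-Dif, against 39.7 to 49.3 TPM (median 44.6) in pgEpiSCs (log2 difference -5.23, SE 0.10, adjusted p = 8.2e-16). *ITGA6*, the laminin-binding integrin chain of stem cells and epithelia, fell by 2.48 on the log2 scale, and *SNTB1*, a syntrophin gene, fell by 0.57.

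Of the 3 extracellular matrix lists, 2 had the highest medians of the pathway lists. Fibrillar and network collagens took 4.09% ± 0.141 of TPM in MPC-Dif and 0.0378% ± 0.00429 in pgEpiSCs (mean ± SD, n = 3 and 6), and 18 of 22 were higher with 4 lower. *COL1A2*, a chain of type I collagen, had 8626, 8496 and 8309.6 TPM in MPC-Dif, against 21.7 to 35.5 TPM (median 28.3) in pgEpiSCs (log2 difference 8.18, SE 0.10, adjusted p = 1.4e-17). *COL3A1*, the collagen of soft connective tissue, had 5046, 4683 and 4737 TPM in MPC-Dif, against 0 to 10.3 TPM (median 2.63) in pgEpiSCs (log2 difference 10.53, SE 0.31, adjusted p = 1.2e-13). *COL6A3*, a chain of the collagen around muscle fibres, had 3189, 2706 and 2687 TPM in MPC-Dif, against 0.024 to 2.27 TPM (median 1.25) in pgEpiSCs (log2 difference 10.50, SE 0.21, adjusted p = 1.9e-15). The 4 that fell were *COL4A5*, *COL4A6*, *COL2A1* and *COL21A1*. The basement membrane chains thus split, since *COL4A1* rose by 3.48 (SE 0.075) while *COL4A5* fell to 0.314, 0.361 and 0.66 TPM in MPC-Dif, against 17.9 to 23 TPM in pgEpiSCs.

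Matrix glycoproteins and proteoglycans took 3.05% ± 0.0743 of TPM in MPC-Dif and 0.1% ± 0.0131 in pgEpiSCs, with 26 of 29 higher and 3 lower (median 6.56). *FMOD*, encoding the tendon-rich proteoglycan fibromodulin, had 1971, 1959 and 2005 TPM in MPC-Dif, against 1.77 to 4.83 TPM (median 2.85) in pgEpiSCs (log2 difference 8.97, SE 0.11, adjusted p = 1.3e-17). *FN1*, encoding fibronectin, had 7205, 6063 and 6074 TPM in MPC-Dif, against 156 to 181 TPM (median 173) in pgEpiSCs (log2 difference 5.23, SE 0.065, adjusted p = 2.2e-17). The exceptions were *FBN2*, the fibrillin of embryonic matrix, at 0.396, 0.235 and 0.238 TPM in MPC-Dif against 6.2 to 19.5 TPM in pgEpiSCs, *VCAN* and *FBLN1*. All 25 tested remodelling and cross-linking enzymes were higher. *MMP2*, a gelatinase, had 5474, 5298 and 5295 TPM in MPC-Dif, against 147 to 173 TPM (median 161) in pgEpiSCs (log2 difference 5.06, SE 0.052, adjusted p = 5.2e-18), and *TIMP3*, an inhibitor of such proteases, rose by 8.09 (SE 0.11).

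**Figure D3:**
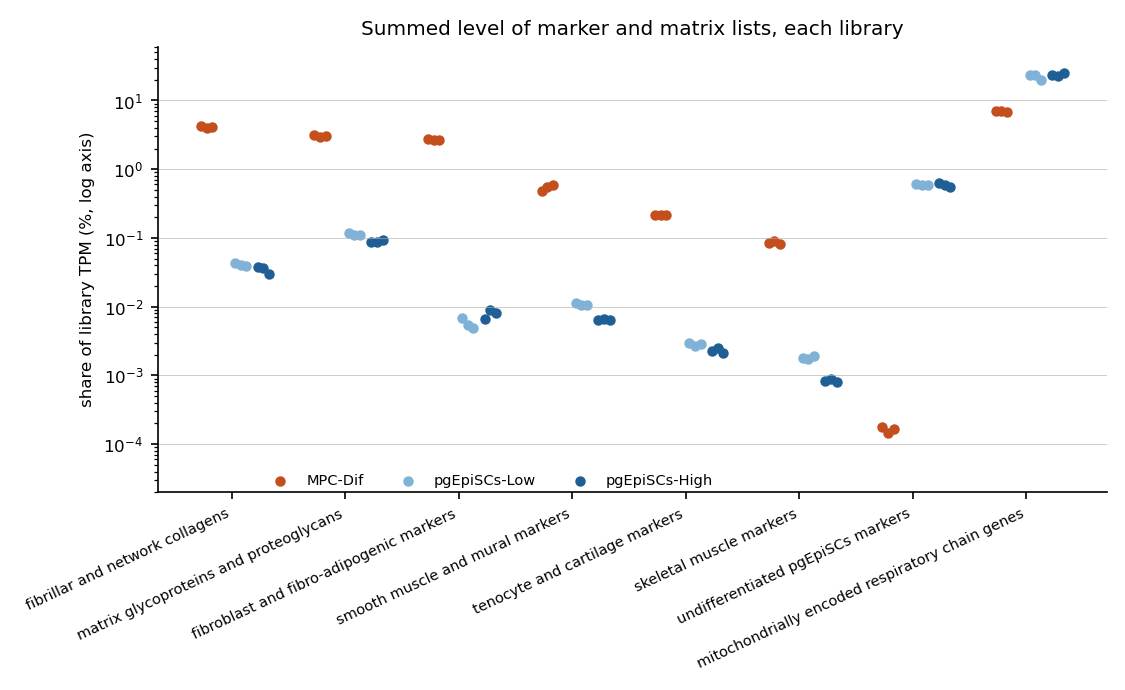
Summed TPM of 8 gene lists as a share of the library (y axis, percent, log axis) in each MPC-Dif library (orange) and each pgEpiSCs library (light blue low, dark blue high passage). Fibroblast markers took 2.66% in MPC-Dif on average and skeletal muscle markers 0.0862%, against 0.0068% and 0.0013% in pgEpiSCs, and mitochondrially encoded genes took 6.93% in MPC-Dif against 22.9% in pgEpiSCs.

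Markers of other cell types of muscle tissue were given the same count, beside 39.7% higher and 46.6% lower over all tested genes. Of 12 smooth muscle and mural markers 9 were higher and 1 lower, at 0.488% to 0.594% of TPM in MPC-Dif and 0.0063% to 0.0115% in pgEpiSCs. *ACTA2*, smooth muscle actin, which immature skeletal muscle also expresses, had 2070.1, 2568 and 2742 TPM in MPC-Dif, against 1.69 to 5.42 TPM in pgEpiSCs (log2 difference 9.10, SE 0.13, adjusted p = 8.7e-17). *ACTG2*, the enteric smooth muscle actin, and *LMOD1*, a leiomodin of smooth muscle, rose by 5.59 (SE 0.16) and 5.57 (SE 0.11). *MYH11*, smooth muscle myosin, had 0.463, 0.787 and 0.665 TPM in MPC-Dif, against 0.335 to 0.828 TPM in pgEpiSCs, and did not pass the test (adjusted p = 0.618), though it did after quantile normalization (adjusted p = 0.0079). *CNN1*, encoding calponin, had 5.12, 5.66 and 7.45 TPM in MPC-Dif, against 2.37 to 8.55 TPM in pgEpiSCs (adjusted p = 0.187), and passed as higher against high passage alone (log2 difference 0.67, adjusted p = 0.00194). Of 8 tenocyte and cartilage markers 4 were higher and 2 lower, at 0.213% to 0.219% of TPM in MPC-Dif and 0.00209% to 0.00296% in pgEpiSCs. Most of the summed level in MPC-Dif was *FMOD*, the proteoglycan gene given above, so the sum describes mainly that gene. *TNMD*, encoding the tendon protein tenomodulin, had 36.1, 40.8 and 44 TPM in MPC-Dif, against 0 to 1.01 TPM in pgEpiSCs (log2 difference 5.05, SE 0.17, adjusted p = 4.9e-13), and *COMP* rose by 5.42 (SE 0.11), while *SCX*, the tendon transcription factor, stayed under 1 TPM in MPC-Dif.

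Endothelial markers gave 4 of 7 higher and 3 lower, beside 39.7% and 46.6% over all tested genes. These shares also apply to the counts of the lists that follow. Endothelial markers took 0.007% to 0.00727% of TPM in MPC-Dif, most of it *ERG*, and 0.00146% to 0.00206% in pgEpiSCs. *ERG*, an endothelial and mesenchymal factor, had 51.4, 54.1 and 55.4 TPM in MPC-Dif, against 0 to 0.69 TPM in pgEpiSCs. Of the defining genes, *PECAM1* averaged 10.1 ± 0.858 TPM in MPC-Dif and 0.969 ± 0.229 TPM in pgEpiSCs (SD, n = 3 and 6, log2 difference 2.51, SE 0.13, adjusted p = 9.0e-11), and *CDH5* had 1.49, 1.06 and 0.423 TPM in MPC-Dif and was listed at 0 in all 6 pgEpiSCs libraries (adjusted p = 3.0e-05). *VWF* had 0.075, 0.058 and 0.054 TPM in MPC-Dif, against 0.197 to 0.741 TPM in pgEpiSCs (log2 difference -0.49, SE 0.12, adjusted p = 0.0016), a call lost after quantile normalization (adjusted p = 0.0598), and *TIE1* and *ESAM* fell by 3.30 and 0.96 on the log2 scale. Blood and macrophage markers gave 2 of 4 higher and 1 lower, with *CD14* at 20.5, 18.3 and 23.5 TPM in MPC-Dif against 0 to 0.164 TPM in pgEpiSCs and *SPI1*, the myeloid master factor, at 0.825, 0.791 and 1.17 TPM in MPC-Dif against 2.1 to 5.27 TPM in pgEpiSCs. Adipocyte markers gave 3 of 4 higher, with *PPARG*, the master factor of fat cells, at 2.48, 2.99 and 2.31 TPM in MPC-Dif against 0 to 0.116 TPM in pgEpiSCs. Schwann cell and neuron markers gave 2 of 9 higher and 7 lower, with *TUBB3*, a neuronal tubulin, at 5.43, 3.89 and 4.64 TPM in MPC-Dif against 209.8 to 274 TPM in pgEpiSCs. Of 7 tested muscle stem cell markers 4 were higher and 2, *FGFR4* and *SPRY1*, were lower, with a median log2 difference of 0.53. Far above that median was *VCAM1*, an adhesion protein that marks satellite cells and inflamed stroma. *VCAM1* had 185, 148 and 161 TPM in MPC-Dif, against 0 to 0.105 TPM in pgEpiSCs (log2 difference 7.34, SE 0.15, adjusted p = 3.4e-15). How far RNA of these cell types took part in the differences was not tested.

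Most pluripotency factors were near or at 0 in MPC-Dif. Of 16 tested members 14 were lower and 2 higher, with a median log2 difference of -5.52. *NANOG*, a core pluripotency factor, was listed at 0 in all 3 MPC-Dif libraries and had 214 to 254 TPM (median 226) in pgEpiSCs (adjusted p = 1.3e-16). *SOX2*, its partner, had 0, 0 and 0.05 TPM in MPC-Dif, against 61.2 to 92 TPM (median 80.2) in pgEpiSCs (log2 difference -6.29, SE 0.11, adjusted p = 4.2e-16). *LIN28A*, which blocks let-7 microRNA maturation, was listed at 0 in all 3 MPC-Dif libraries and had 1198 to 1514 TPM (median 1249.9) in pgEpiSCs (adjusted p = 7.7e-16). Every pgEpiSCs library of both passages was thus clearly above every MPC-Dif library for these 3 genes, and *LIN28B*, *PRDM14* and *ZFP42* were likewise listed at 0 in MPC-Dif.

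The 2 members that rose were Krüppel-like factors, which have roles outside the pluripotent state in epithelia and stroma. *KLF4* had 138, 132 and 141 TPM in MPC-Dif, against 1.35 to 5.15 TPM (median 3.95) in pgEpiSCs (log2 difference 4.98, SE 0.19, adjusted p = 2.1e-12). *KLF5* had 19.7, 20.8 and 21 TPM in MPC-Dif, against 3.76 to 15.5 TPM (median 9.39) in pgEpiSCs (log2 difference 1.15, SE 0.11, adjusted p = 2.0e-07). Neither overlapped between the groups.

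Primed epiblast and gastrulation genes gave 15 of 17 lower and 2 higher (median -3.89). *OTX2*, the anterior epiblast factor, had 0.052, 0 and 0 TPM in MPC-Dif, against 205 to 321 TPM (median 264) in pgEpiSCs (log2 difference -7.98, SE 0.051, adjusted p = 7.7e-20). *CER1* and *FOXA2*, genes of anterior endoderm and early streak, were listed at 0 in all MPC-Dif libraries and averaged 84.1 ± 3.85 and 37.1 ± 24.8 TPM in pgEpiSCs (SD, n = 6). The members that rose were the secreted Wnt inhibitors *SFRP2*, at 3574, 3203 and 3360.0 TPM in MPC-Dif against 45.3 to 71.7 TPM in pgEpiSCs (log2 difference 5.92, SE 0.059, adjusted p = 3.9e-18), and *SFRP1*, at 604, 537 and 558 TPM in MPC-Dif against 163 to 202 TPM in pgEpiSCs (log2 difference 1.63, SE 0.047, adjusted p = 1.2e-13).

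Of 10 tested enzymes and factors of DNA methylation and demethylation 9 were lower and none higher (median -1.92). *DNMT3B*, a de novo methyltransferase, had 1.61, 1.35 and 1.31 TPM in MPC-Dif, against 355 to 537 TPM (median 441) in pgEpiSCs (log2 difference -7.50, SE 0.057, adjusted p = 4.3e-19). *DNMT3A*, its paralog, fell less, with 8.84, 9.34 and 7.65 TPM in MPC-Dif, against 29.7 to 43.6 TPM (median 37.4) in pgEpiSCs (log2 difference -1.98, SE 0.072, adjusted p = 1.6e-12), so that it made up 85.8% ± 1.44 of the sum of both genes in MPC-Dif and 8.06% ± 2.58 in pgEpiSCs (SD, n = 3 and 6). *UHRF1*, which guides maintenance methylation, had 7.76, 8.27 and 7.11 TPM in MPC-Dif, against 197 to 325 TPM (median 251) in pgEpiSCs (log2 difference -4.85, SE 0.057, adjusted p = 1.2e-17). *TET1*, a demethylating dioxygenase, fell by 2.53 on the log2 scale.

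Genes of the TGF-beta superfamily went both ways, with Nodal genes lower. Of 27 tested ligands, receptors and antagonists 16 were higher and 8 lower, beside 39.7% and 46.6% over all tested genes. *LEFTY2*, a Nodal antagonist and direct Nodal target, had 0.09, 0.086 and 0.324 TPM in MPC-Dif, against 3147 to 4010.1 TPM (median 3691) in pgEpiSCs (log2 difference -11.60, SE 0.17, adjusted p = 9.8e-17), the largest fall of all genes with a symbol. *NODAL* itself was listed at 0 in all MPC-Dif libraries and had 2.73 to 10.1 TPM (median 6.38) in pgEpiSCs (adjusted p = 3.3e-12). *FST*, encoding the activin and myostatin antagonist follistatin, had 7.58, 6.14 and 7.51 TPM in MPC-Dif, against 126 to 367 TPM (median 249) in pgEpiSCs (log2 difference -4.78, SE 0.10, adjusted p = 3.3e-15). The receptor gene *TGFBR2* had 199, 179 and 179 TPM in MPC-Dif, against 1.16 to 2.26 TPM in pgEpiSCs (log2 difference 6.20, SE 0.11, adjusted p = 5.6e-16), and *LTBP2* and *GREM1*, genes of a latent complex protein and a BMP antagonist, rose by 7.22 (SE 0.10) and 6.35 (SE 0.29).

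Epithelial junction and keratin genes gave 20 of 26 lower and 4 higher, and mesenchymal genes 19 of 20 higher and 1 lower. *DSP*, encoding desmoplakin of desmosomes, was listed at 0 in MPC-Dif and had 187 to 223 TPM (median 201) in pgEpiSCs (adjusted p = 9.3e-19). *KRT8*, a simple epithelial keratin, had 0.042, 0 and 0 TPM in MPC-Dif, against 137 to 199 TPM (median 169) in pgEpiSCs (log2 difference -7.37, SE 0.11, adjusted p = 1.2e-16). *VIM*, encoding the mesenchymal filament vimentin, had 9172, 9385 and 10104 TPM in MPC-Dif, against 481 to 826 TPM (median 648) in pgEpiSCs (log2 difference 3.90, SE 0.049, adjusted p = 2.1e-17). *CDH1*, epithelial cadherin, had 0.481, 0.659 and 0.599 TPM in MPC-Dif, against 22.3 to 36.6 TPM in pgEpiSCs (log2 difference -4.33, SE 0.12, adjusted p = 7.4e-14), so that *CDH1* and *CDH2* were both lower in MPC-Dif. The exceptions in the epithelial list were *PKP3*, *JUP*, *CLDN4* and *SPINT2*, of which only *JUP*, encoding plakoglobin, passed 6 TPM in MPC-Dif, at 198, 183 and 200.4 TPM against 73.4 to 114 TPM in pgEpiSCs. The difference of *SPINT2* was -0.55 against the low-passage libraries alone (adjusted p = 0.119), and its call was lost without MPC-Dif replicate 1 (adjusted p = 0.0843). The exception in the mesenchymal list was *CAV1*, a caveolin, at 126, 114 and 104 TPM in MPC-Dif against 501 to 693 TPM in pgEpiSCs (log2 difference -2.32, SE 0.11, adjusted p = 3.1e-11).

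Genes of DNA replication and mitosis were lower throughout. All 24 tested DNA replication genes and all 24 tested mitosis genes were lower in MPC-Dif, each without overlap, with medians of -2.64 and -3.39 against -0.14 over all genes. *MCM2*, a subunit of the replicative helicase, had 17.8, 19.5 and 18.9 TPM in MPC-Dif, against 277 to 319.9 TPM (median 296) in pgEpiSCs (log2 difference -3.92, SE 0.049, adjusted p = 2.1e-17). *TOP2A*, the mitotic topoisomerase, had 29.3, 22.3 and 18.3 TPM in MPC-Dif, against 374 to 477 TPM (median 400.0) in pgEpiSCs (log2 difference -4.10, SE 0.10, adjusted p = 2.8e-14). *CCNB1*, a mitotic cyclin, had 26.8, 26.9 and 21.7 TPM in MPC-Dif, against 406 to 462 TPM (median 439.8) in pgEpiSCs (log2 difference -4.07, SE 0.064, adjusted p = 1.9e-16). None of these 3 was at 0 in an MPC-Dif library.

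Genes of cell cycle exit gave 17 of 23 higher and 6 lower. *CDKN1A*, the p21 inhibitor that myoblasts induce as they differentiate, had 1344, 1384 and 1314 TPM in MPC-Dif, against 20.6 to 27.3 TPM (median 24.8) in pgEpiSCs (log2 difference 5.73, SE 0.067, adjusted p = 1.1e-17). *CDKN2B*, encoding the inhibitor p15, had 53.7, 49.2 and 56.2 TPM in MPC-Dif and was listed at 0 in all 6 pgEpiSCs libraries (adjusted p = 4.2e-16). *GADD45A*, a stress-induced growth arrest gene, had 279, 251 and 270.1 TPM in MPC-Dif, against 1.67 to 3.94 TPM (median 2.87) in pgEpiSCs (log2 difference 6.20, SE 0.11, adjusted p = 8.6e-16). The 6 that fell included the S-phase drivers *CCNE1*, *CCNE2*, *E2F1* and *E2F2*, with log2 differences of -2.75, -2.38, -2.47 and -2.51. By contrast the D-type cyclin genes *CCND1* and *CCND2* were called higher. They averaged 125.2 and 28.57 TPM in MPC-Dif, against 41.75 and 13.97 TPM in pgEpiSCs.

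HOX genes, which give cells their position along the body axis, were higher in MPC-Dif in all 4 clusters. Of 18 tested HOXA and HOXB genes 16 were higher and none lower (median 1.74), and of 16 HOXC and HOXD genes 15 were higher and 1 lower (median 1.66). *HOXA5* had 47.4, 39.2 and 42.5 TPM in MPC-Dif, against 0.396 to 0.799 TPM (median 0.564) in pgEpiSCs (log2 difference 4.81, SE 0.11, adjusted p = 9.4e-15). *HOXA9* had 39.9, 39.5 and 37.3 TPM in MPC-Dif, against 0.502 to 2.06 TPM (median 0.987) in pgEpiSCs (log2 difference 4.27, SE 0.15, adjusted p = 1.3e-12). *HOXD9*, from another cluster, had 12, 20.0 and 20.3 TPM in MPC-Dif, against 0 to 0.317 TPM (median 0.0805) in pgEpiSCs (log2 difference 4.01, SE 0.16, adjusted p = 4.2e-12). The pgEpiSCs libraries were not empty of HOX transcripts, since *HOXB7* reached 3.23 to 9.25 TPM there, against 50.0, 46.8 and 42.9 TPM in MPC-Dif. *HOXC4* was the member that fell, at 1.52, 1.27 and 1.37 TPM in MPC-Dif against 1.63 to 4.41 TPM in pgEpiSCs.

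**Figure D4:**
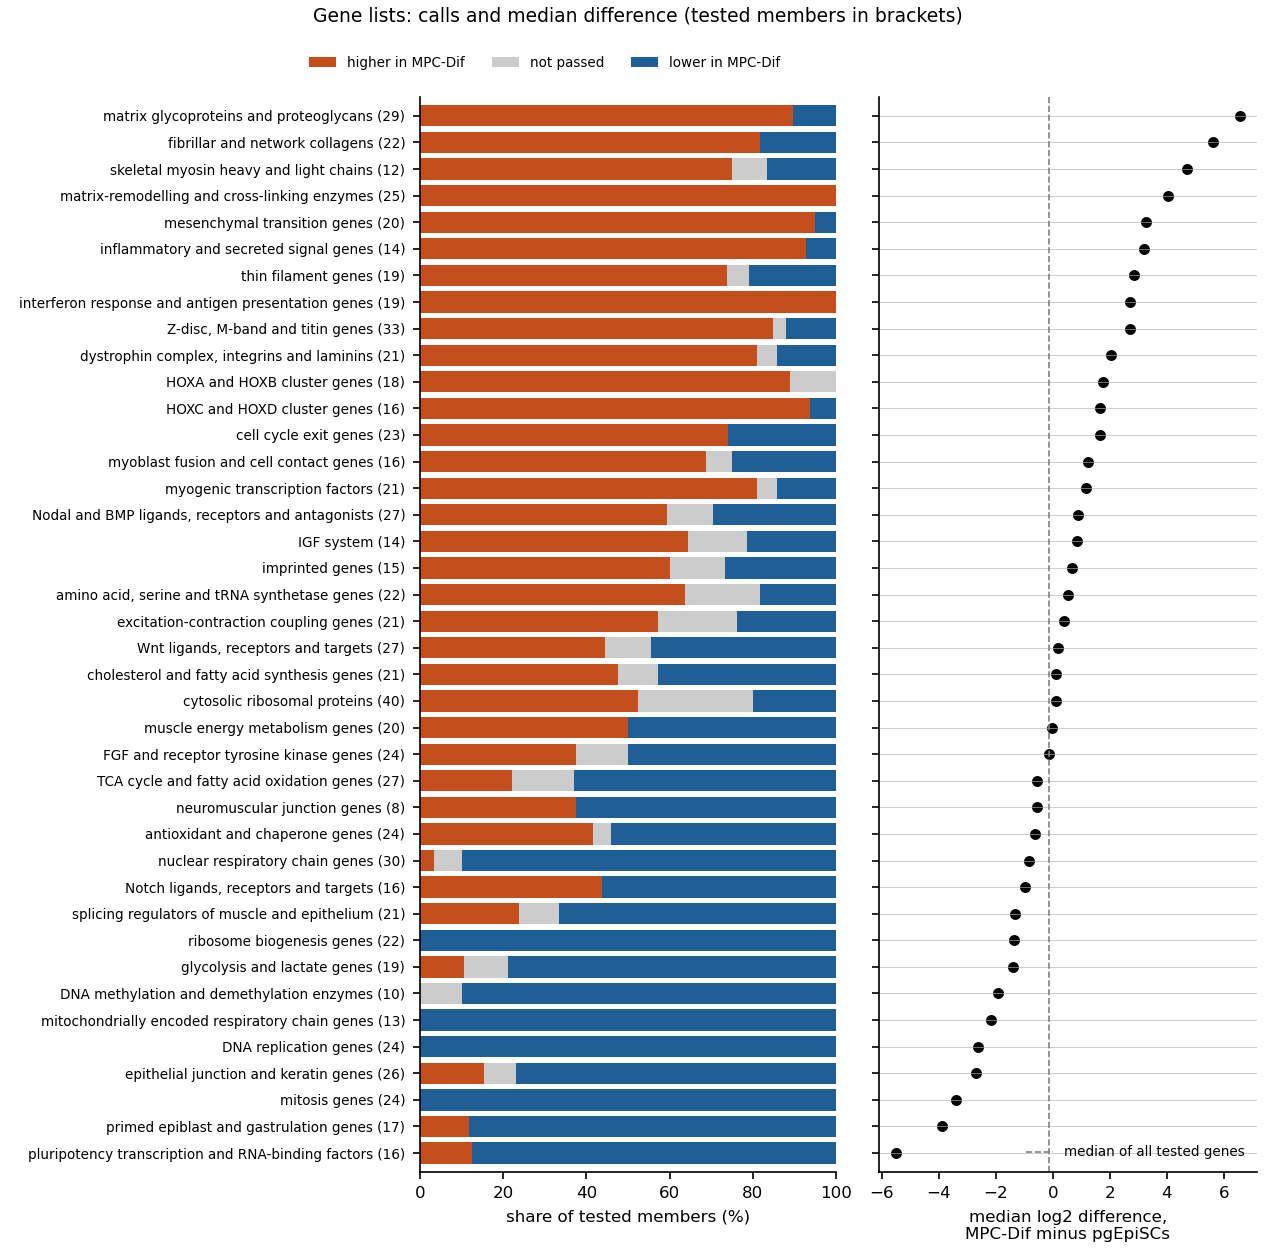
Left, share of tested members of 40 gene lists (percent, x axis) that were higher (orange), not passed (grey) or lower (blue) in MPC-Dif, and right, the median log2 difference of MPC-Dif minus pgEpiSCs of each list, with the median of all tested genes (-0.14) as a dashed line. Matrix glycoproteins and proteoglycans stood at the top with a median of 6.56, fibrillar and network collagens next with 5.61, and pluripotency factors at the bottom with -5.52.

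FGF and receptor tyrosine kinase genes went both ways, as all tested genes did. Of 24 tested genes 9 were higher and 12 lower, near the 39.7% and 46.6% over all tested genes. *PDGFRB* and *PDGFRA*, the platelet-derived growth factor receptors of mesenchymal cells, had 687, 591 and 624 TPM and 286, 217 and 216 TPM in MPC-Dif, against 1.12 to 2.32 TPM and 0.603 to 1.2 TPM in pgEpiSCs, with log2 differences of 7.99 (SE 0.10) and 6.96 (SE 0.13). *FGFR2*, an FGF receptor with a prominent epithelial form, fell by 4.34 on the log2 scale. *FGF2*, whose protein was added to both the pMuSCs growth medium and the pgEpiSCs medium, had 239, 237 and 214 TPM of transcript in MPC-Dif, against 7.87 to 12.8 TPM (median 11.5) in pgEpiSCs (log2 difference 4.30, SE 0.10, adjusted p = 1.0e-14). *EGFR* had 92.6, 75.7 and 75.9 TPM in MPC-Dif, against 1.11 to 9.53 TPM in pgEpiSCs (log2 difference 4.09, SE 0.11, adjusted p = 4.5e-14).

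Wnt genes were even in number, with 12 of 27 higher and 12 lower, near the 39.7% and 46.6% over all tested genes. *SFRP4*, a secreted inhibitor, had 211, 226 and 233 TPM in MPC-Dif, against 0 to 1.96 TPM in pgEpiSCs (log2 difference 7.17, SE 0.14, adjusted p = 1.4e-15), while *DKK1*, another secreted inhibitor, was listed at 0 in MPC-Dif and had 0.16 to 2.87 TPM in pgEpiSCs (adjusted p = 4.5e-05). The receptor gene *FZD1* rose by 3.99 (SE 0.10), while the receptor gene *FZD5* fell by 3.63 on the log2 scale. *WNT3*, a ligand of gastrulation, had 0.229, 0.352 and 0.331 TPM in MPC-Dif, against 4.86 to 10.9 TPM in pgEpiSCs (log2 difference -2.74, SE 0.11, adjusted p = 6.3e-12). *AXIN2*, a feedback target of the pathway, had 0.774, 0.624 and 0.698 TPM in MPC-Dif, against 4.91 to 8.43 TPM in pgEpiSCs (log2 difference -2.11, SE 0.13, adjusted p = 6.8e-10). Of 16 Notch genes 7 were higher and 9 lower, beside the same shares over all tested genes. *NOTCH2* was at 201, 154 and 147 TPM in MPC-Dif against 32.2 to 34.1 TPM in pgEpiSCs. *NOTCH4* was at 0.528, 0.203 and 0.119 TPM in MPC-Dif against 5.92 to 18 TPM in pgEpiSCs.

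In the insulin-like growth factor system 9 of 14 genes were higher and 3 lower, beside 39.7% and 46.6% over all tested genes. *IGFBP4*, a binding protein, had 313, 284 and 299.6 TPM in MPC-Dif, against 4.21 to 9.05 TPM (median 7.17) in pgEpiSCs (log2 difference 5.29, SE 0.083, adjusted p = 1.9e-16). The 3 that fell were the RNA-binding proteins *IGF2BP1*, *IGF2BP2* and *IGF2BP3*, which the list carries by name and which bind transcripts rather than the hormone. *IGF2BP1*, an oncofoetal gene, had 0.809, 0.775 and 1.46 TPM in MPC-Dif, against 206 to 242 TPM (median 223) in pgEpiSCs (log2 difference -6.80, SE 0.11, adjusted p = 2.1e-16). Of 15 imprinted genes 9 were higher and 4 lower, beside the same shares over all tested genes. *PHLDA2*, a growth-restraining imprinted gene, had 18.8, 15.8 and 24.6 TPM in MPC-Dif and was listed at 0 in all 6 pgEpiSCs libraries, while *SNRPN* fell to 16.1, 16.6 and 15.2 TPM in MPC-Dif, against 69.4 to 100.1 TPM in pgEpiSCs (log2 difference -2.33, SE 0.048, adjusted p = 2.5e-15).

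Interferon response and antigen presentation genes were higher in all 19 tested cases, each without overlap (median 2.72). *B2M*, the light chain of MHC class I, had 86.2, 100.2 and 91.4 TPM in MPC-Dif, against 0.536 to 1.06 TPM (median 0.805) in pgEpiSCs (log2 difference 5.71, SE 0.086, adjusted p = 1.3e-16). *IFIT1*, an interferon-induced antiviral gene, had 19.2, 14 and 12.7 TPM in MPC-Dif, against 0.053 to 0.408 TPM in pgEpiSCs (log2 difference 3.70, SE 0.14, adjusted p = 1.9e-12). Of 14 inflammatory and secreted signal genes 13 were higher and 1 lower. *CCL2*, a monocyte chemokine, had 258, 231 and 237 TPM in MPC-Dif, against 0 to 0.95 TPM in pgEpiSCs (log2 difference 7.64, SE 0.16, adjusted p = 3.5e-15), and *IL6* had 15.8, 17.3 and 18.2 TPM in MPC-Dif, against 0 to 0.191 TPM in pgEpiSCs (log2 difference 4.13, SE 0.10, adjusted p = 2.2e-14). The one that fell was *C3*, a complement gene, which fell by 1.32 on the log2 scale.

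Mitochondrially encoded transcripts took 6.93% ± 0.185 of TPM in MPC-Dif and 22.9% ± 1.67 in pgEpiSCs (SD, n = 3 and 6), and all 13 were lower without overlap. *ND3*, a complex I subunit, had 665, 755 and 522 TPM in MPC-Dif, against 4367 to 5549 TPM (median 5137) in pgEpiSCs (log2 difference -2.97, SE 0.11, adjusted p = 2.0e-12). *COX1*, a complex IV subunit and the most abundant gene of MPC-Dif, had the smallest difference, 18698, 18762 and 18537 TPM in MPC-Dif against 19096 to 25988 TPM (median 24800.3) in pgEpiSCs (log2 difference -0.34, SE 0.061, adjusted p = 1.1e-04), and quantile normalization turned its difference to 0.66. Nuclear genes of the respiratory chain were lower by less, with 27 of 30 lower, 1 higher and a median of -0.84. *COX4I1* was the member that rose, at 82.4, 90.4 and 95.7 TPM in MPC-Dif against 47.4 to 62.2 TPM in pgEpiSCs (log2 difference 0.68, SE 0.081, adjusted p = 1.5e-06), and *UQCRFS1* had the largest fall, at 44.7, 38 and 45.2 TPM in MPC-Dif against 203 to 239.9 TPM in pgEpiSCs.

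Glycolytic genes were lower too, with 15 of 19 lower and 2 higher (median -1.41). *ENO1*, the widely used enolase, had 1252, 1243 and 1215 TPM in MPC-Dif, against 3255 to 4630.5 TPM (median 3972) in pgEpiSCs (log2 difference -1.67, SE 0.077, adjusted p = 2.6e-11). *SLC16A3*, a lactate exporter, had 8.27, 8.77 and 8.75 TPM in MPC-Dif, against 83.7 to 181 TPM (median 117) in pgEpiSCs (log2 difference -3.68, SE 0.25, adjusted p = 3.2e-09), and *HK2*, an inducible hexokinase, fell by 2.75 on the log2 scale. *HK1* and *PFKP* were the ones that rose, by 0.36 (SE 0.059) and 0.71 (SE 0.10), and the call for *HK1* was lost once mitochondrially encoded genes were left out (adjusted p = 0.103). Over all tested genes 46.6% were lower and 39.7% higher. Of 27 genes of the tricarboxylic acid cycle and fatty acid oxidation 17 were lower and 6 higher. *ACADL*, a fatty acid dehydrogenase, was the main exception, with 82.3, 83.8 and 81.4 TPM in MPC-Dif, against 4.21 to 10.8 TPM in pgEpiSCs (log2 difference 3.37, SE 0.087, adjusted p = 3.4e-14).

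Genes of muscle energy use gave 10 of 20 higher and 10 lower, beside 39.7% and 46.6% over all tested genes. Pairs of related gene forms showed how large the muscle form was within each pair. *CKM*, muscle creatine kinase, made up 15.3% ± 2.67 of the sum of *CKM* and *CKB* in MPC-Dif and 0.00796% ± 0.00908 in pgEpiSCs (SD, n = 3 and 6). The *CKM* level was 6.21, 6.67 and 5.35 TPM in MPC-Dif, against 0 to 0.121 TPM in pgEpiSCs, and *CKB*, the brain form, had 32.9, 31 and 37.7 TPM in MPC-Dif, against 489 to 819 TPM in pgEpiSCs. The muscle forms *ENO3* and *PGAM2* were 2.38% ± 0.251 and 4.27% ± 0.662 of their pairs in MPC-Dif, against 0.205% ± 0.0624 and 0.76% ± 0.0983 in pgEpiSCs, so the general forms kept more than 95% of each pair. *ACTA1* was 7.21% ± 0.556 of its sum with *ACTB* in MPC-Dif, against 0.0159% ± 0.0162 in pgEpiSCs. Some muscle forms went the other way, since *PFKM* was 19.3% ± 1.38 of its sum with *PFKP* in MPC-Dif, against 41.3% ± 4.78 in pgEpiSCs, and *PYGM* 54.4% ± 0.578 of its sum with *PYGL* in MPC-Dif, against 88.8% ± 2.13 in pgEpiSCs.

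**Figure D5:**
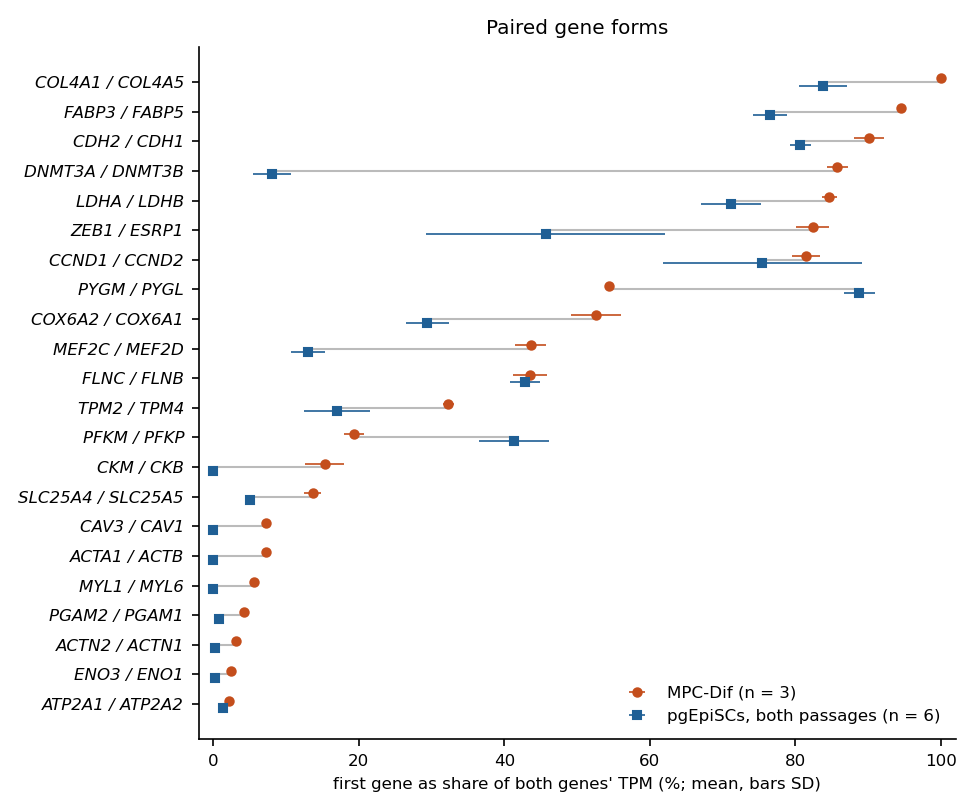
Level of the first gene of each of 22 pairs as a share of the TPM of both genes (x axis, percent, mean with SD bars) in MPC-Dif (orange circles, n = 3) and pgEpiSCs of both passages (blue squares, n = 6). DNMT3A / DNMT3B moved furthest, 85.8% in MPC-Dif and 8.06% in pgEpiSCs, and PFKM / PFKP and PYGM / PYGL were lower in MPC-Dif.

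Cytosolic ribosomal protein genes differed little, with 21 of 40 higher and 8 lower, beside 39.7% and 46.6% over all tested genes. None was beyond a log2 difference of 2. Their median of 0.12 turned to -0.15 without the mitochondrially encoded genes, -0.080 without the 100 most abundant genes and -0.12 after quantile normalization. The genes that build ribosomes were lower in all 22 tested cases (median -1.36), each without overlap. *FBL*, encoding the nucleolar methyltransferase fibrillarin, had 99.1, 111 and 120.5 TPM in MPC-Dif, against 687 to 776 TPM (median 707) in pgEpiSCs (log2 difference -2.70, SE 0.059, adjusted p = 4.9e-15). Of 21 splicing regulators 14 were lower and 5 higher. *MBNL1*, which promotes mature muscle splicing, had 159, 146 and 142 TPM in MPC-Dif, against 12.7 to 17.5 TPM (median 14.9) in pgEpiSCs (log2 difference 3.23, SE 0.09, adjusted p = 8.0e-14). *HNRNPA1*, an abundant splicing repressor, had 612, 586 and 548 TPM in MPC-Dif, against 3629 to 4089 TPM (median 3763) in pgEpiSCs (log2 difference -2.71, SE 0.046, adjusted p = 3.9e-16), and *ESRP2*, an epithelial splicing factor, had 0.234, 0.524 and 0.141 TPM in MPC-Dif, against 11.4 to 20.6 TPM in pgEpiSCs (log2 difference -3.69, SE 0.12, adjusted p = 5.9e-13).

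Lists of stress and nutrient genes each held members in both directions, and so did all tested genes, with 39.7% higher and 46.6% lower. Of 24 antioxidant and chaperone genes 10 were higher and 13 lower, near those shares. *HMOX1*, heme oxygenase, had 186, 171 and 195 TPM in MPC-Dif, against 5.98 to 10.0 TPM in pgEpiSCs (log2 difference 4.29, SE 0.12, adjusted p = 1.1e-13), and *SOD3*, the extracellular superoxide dismutase, rose by 4.98 (SE 0.20), while *PRDX6*, a peroxiredoxin, fell to 114, 122 and 118 TPM in MPC-Dif, against 790.2 to 1118 TPM in pgEpiSCs (log2 difference -3.00, SE 0.045, adjusted p = 1.3e-16). Of the chaperone system *BAG3* and *DNAJB1* rose by 1.18 (SE 0.061) and 0.61 (SE 0.046). Of 22 amino acid and tRNA synthetase genes 14 were higher and 4 lower. *DDIT3* and *TRIB3*, genes of the integrated stress response, had 37.1, 31 and 32.2 TPM and 63.9, 66.3 and 68.3 TPM in MPC-Dif, against 0.329 to 2.26 TPM and 2.51 to 4.98 TPM in pgEpiSCs. Of 21 cholesterol and fatty acid synthesis genes 10 were higher and 9 lower, near the shares of all tested genes. *INSIG1*, a sterol sensor, had a log2 difference of 2.73 (SE 0.075).

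The same libraries were set against the muscle cells that the study derived from pgEpiSCs (pgEpiSCs-MCs, day 44, n = 3) only to show where the tissue-derived cells stood apart from them. Here 31.1% of tested genes were higher and 47.8% lower in MPC-Dif, so that 60.59% of called genes were lower, a share that became 47.16% with libraries scaled by the median of ratios and 45.71% after quantile normalization. These values share the MPC-Dif libraries with the comparison above. *MYOG* averaged 212 ± 10.9 TPM in MPC-Dif and 54.8 ± 10.4 TPM in pgEpiSCs-MCs (log2 difference 1.94, SE 0.20, adjusted p = 4.0e-07), while *MYOD1* had 1.04 ± 0.16 TPM in MPC-Dif and 9.74 ± 1.75 TPM in pgEpiSCs-MCs (log2 difference -2.39, SE 0.15, adjusted p = 1.3e-09). *ACTA1* averaged 126 ± 3.58 TPM in MPC-Dif and 1.43 ± 0.184 TPM in pgEpiSCs-MCs (log2 difference 5.71, SE 0.15, adjusted p = 7.2e-14), and *TRIM63* 35.7 ± 0.552 TPM in MPC-Dif and 0.583 ± 0.321 TPM in pgEpiSCs-MCs (log2 difference 4.55, SE 0.13, adjusted p = 2.3e-13). *MYOG*, *ACTA1* and *TRIM63* were thus higher in the tissue-derived cells than in pgEpiSCs-MCs, and the determination factor *MYOD1* was lower. Most other muscle genes named above are not reported against pgEpiSCs-MCs, so these genes do not stand for all of them.

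Progenitor and neural genes differed between both kinds of muscle culture as well. *PAX3* averaged 0.517 ± 0.408 TPM in MPC-Dif and 114 ± 11.3 TPM in pgEpiSCs-MCs (log2 difference -6.27, SE 0.16, adjusted p = 9.1e-14), and *SOX2* 0.0167 ± 0.0289 TPM in MPC-Dif and 118 ± 18.7 TPM in pgEpiSCs-MCs (log2 difference -6.86, SE 0.12, adjusted p = 2.2e-15). *CDH2* averaged 5.33 ± 0.561 TPM in MPC-Dif and 699.6 ± 37.7 TPM in pgEpiSCs-MCs (log2 difference -6.79, SE 0.071, adjusted p = 3.1e-17), and *TUBB3* 4.65 ± 0.772 TPM in MPC-Dif and 558 ± 37.1 TPM in pgEpiSCs-MCs (log2 difference -6.64, SE 0.10, adjusted p = 4.8e-16). In the other direction *DCN* averaged 2930.4 ± 25 TPM in MPC-Dif and 15.2 ± 1.21 TPM in pgEpiSCs-MCs (log2 difference 7.51, SE 0.23, adjusted p = 4.6e-13), *VCAM1* 165 ± 18.4 TPM in MPC-Dif and 2.59 ± 1.08 TPM in pgEpiSCs-MCs (log2 difference 5.57, SE 0.18, adjusted p = 8.2e-13), and *HOXA5* 43.1 ± 4.12 TPM in MPC-Dif and 0 in all 3 pgEpiSCs-MCs libraries.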

How the data were processed

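RNA sequencing libraries made with poly-A capture were processed by the authors, who used HISAT2 2.1.0 for alignment to the pig assembly Sscrofa11.1 after adapter trimming (Trim Galore 0.6.6). The authors took gene counts from featureCounts 2.0.1 and deposited TPM, which hold no depth. Genes above 0.5 TPM in at least 50% of the libraries of a compared group were kept (13985 of 15031). Log2(TPM + 1) was fitted with limma 3.58.1 (R 4.3.3, trended variance) over all 14 libraries as 5 group means, and MPC-Dif was contrasted with the mean of both pgEpiSCs passages. P-values were adjusted over all tested genes (Benjamini-Hochberg) and called below 0.05. Gene lists, pairs and marker lists were described by counts and medians, and the members and lists were chosen with earlier results of these data known. Of 1064 list and pair genes 138 were not analysed here. Genes were named by rule: the 12 largest rises and falls, the 15 most abundant genes of each group, up to 6 called members per list plus those against its direction, markers, pairs and genes the paper discusses. *MEF2A*, *CDH15*, *ATP8* and *GAPDH* fall outside the rule and were chosen after their values were seen. Some genes are not reported here. The scripts were tested on simulated data. Promoter windows of 200 bases came from the RefSeq annotation of Sscrofa11.1. Alternatives changed the pseudocount, filter, scaling, fit, replicate block, passage and left-out library.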

Additional observations from a re-analysis of the deposited data

Results flagged for a closer look

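The MPC-Dif libraries were also set against each passage of pgEpiSCs alone, and 65 genes were called higher against one passage and lower against the other. *ESRP1*, an epithelial splicing factor gene, had 12.2, 12.7 and 14.4 TPM in MPC-Dif, and its log2 difference was 0.64 over low-passage and -1.03 over high-passage pgEpiSCs. *PEG10*, an imprinted gene, had 68, 59.7 and 59 TPM in MPC-Dif, and its log2 difference was 0.22 over low-passage and -0.61 over high-passage pgEpiSCs. *FZD7*, a Wnt receptor gene, had 69, 68 and 72.3 TPM in MPC-Dif, and its log2 difference was -0.44 over low-passage and 0.15 over high-passage pgEpiSCs. For each of these 3 genes all 3 MPC-Dif libraries lay between both passages, which share the MPC-Dif libraries in both differences, so a single difference over both passages does not describe them.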

How the results depend on the processing

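Over 23 alternative settings the counts of higher and lower genes stayed within 1.5 times their values, except that 2322 genes in place of 1362 were lower beyond a log2 difference of 2 with a pseudocount of 0.1. Leaving out 1 library at a time gave 5364 to 5546 higher and 6274 to 6574 lower genes. Of the called genes 54.02% were lower, against 61.36% without the mitochondrially encoded genes, 59.17% without the 100 most abundant genes, 55.36% under quantile normalization and 50.85% under median-of-ratios scaling. A fit with the replicate number as a block gave 5533 higher and 6503 lower genes, and same-numbered libraries did not deviate together (correlations -0.155 to 0.088).

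The median of muscle energy genes turned to 0.018 under median-of-ratios scaling, 0.0080 under quantile normalization and 0.027 without MPC-Dif replicate 1 (range with 1 library left out -0.26 to 0.027). The median of ribosomal proteins turned to -0.12 under quantile normalization, -0.15 without the mitochondrially encoded genes and -0.080 without the 100 most abundant genes. The median of cholesterol genes turned to -0.024 under quantile normalization and -0.14 without the mitochondrially encoded genes. The median of blood markers turned to -0.031 without the 100 most abundant genes, -0.0074 without pgEpiSCs-High replicate 1 and -0.025 without pgEpiSCs-High replicate 3 (range with 1 library left out -0.025 to 1.19). Among named genes, *COX1* turned to 0.66 under quantile normalization. Against low passage alone *SPINT2* turned to -0.55, *ESRP1* to 0.64 and *PEG10* to 0.22, and against high passage alone *FZD7* turned to 0.15. The cause was not tested. TPM holds no depth, so the precision of low values is unknown.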

Other observations

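Several abundant or strongly changed genes lay outside the lists. *CLU*, encoding the secreted chaperone clusterin, had 9326, 9867 and 9353 TPM in MPC-Dif, against 31.6 to 57.3 TPM (median 42.4) in pgEpiSCs (log2 difference 7.80, SE 0.046, adjusted p = 5.3e-20). *FTL*, the ferritin light chain, had 12580.0, 13649.9 and 13266 TPM in MPC-Dif, against 1426 to 1676 TPM (median 1561) in pgEpiSCs (log2 difference 3.08, SE 0.053, adjusted p = 4.7e-16). On the other side *SLC2A5*, the fructose transporter, had 0.33, 0.316 and 0.446 TPM in MPC-Dif, against 231 to 406 TPM (median 332) in pgEpiSCs (log2 difference -7.88, SE 0.11, adjusted p = 8.8e-17), and *KIF5C*, a kinesin of neurons, had 0.025, 0 and 0.045 TPM in MPC-Dif, against 166 to 199.8 TPM (median 190.0) in pgEpiSCs (log2 difference -7.52, SE 0.059, adjusted p = 4.7e-19).

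The deposited row named *GAPDH*, a glycolytic gene that most cells use at high levels, held only 2.48, 2.01 and 2.75 TPM in MPC-Dif and 1.14 to 5.43 TPM in pgEpiSCs (adjusted p = 0.72), and it was chosen after its values were seen. The deposited table does not show whether this symbol stands on the gene itself or on a copy, so the values are given for that row only.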
